A study of Mus musculus with 4 samples.

Results

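The genes described here encode 10 heat shock chaperones of mouse liver, 8 of the cytosol (Hspa1a, Hspa1b, Hspa8, Hsp90aa1, Hsp90ab1, Hsph1, Hspb1 and Dnajb1) and 2 of the mitochondrial matrix (Hspd1 and Hspe1). They were found by name, through the RefSeq accession that each array probe carries, and were represented by 16 of the 41174 probes on the array, or 10 of its 17305 genes with a symbol. RNA came from the livers of male C57Bl/6 mice aged 3 months, all of them Wrn mutant (Wrn encodes the RecQ helicase lost in Werner syndrome; the allele is not given in the labels). The treated mice (n = 4) had drunk water with 0.4% vitamin C from weaning, and the untreated mice (n = 4) had not. Each of 4 arrays held 1 treated liver in the green dye Cy3 and 1 untreated liver in the red dye Cy5, so the study asked what vitamin C changes in the liver of Wrn mutant mice. No wild-type liver was among the samples. Arrays are numbered 1 to 4 after the replicate numbers in the labels.

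Chaperones bind unfolded proteins and help them reach or keep their folded state. In the cytosol, J proteins such as Dnajb1 deliver clients to HSP70 proteins, which pass some of them to HSP90, while small heat shock proteins such as Hspb1 hold unfolded proteins ready for refolding. In the mitochondrial matrix, Hspd1 (HSP60) forms a barrel in which proteins fold, and Hspe1 (HSP10) is its lid. Heat and protein damage raise many of these genes through the transcription factor HSF1, which binds heat shock elements, arrays of short units in alternating orientation. Hspa8 and Hsp90ab1 are the forms made without stress, and Hspa1a, Hspa1b and Hsp90aa1 the inducible ones.

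Promoters are shown for members that share one or nearly do, and for Hspb1, which does not. Hspd1 and Hspe1 lie head to head and share the DNA between them, and Hspa1a and Hspa1b are neighbouring near-copies. RefSeq promoter windows (build GRCm38.p6, 250 bases before to 50 after a start site) were in the table for 7 of the 10 members. The stretches shown run over the 150 bases before the start site, on the strand of the gene. Capitals mark heat shock elements of at least 2 units, found as GAANNTTC or TTCNNGAA, which read the same on both strands and may overlap. The Hspe1 stretch (chr1:55087998-55088147, plus strand), that of Hspa1a (chr17:34972157-34972306, minus strand), that of Hspa1b (chr17:34959239-34959388, minus strand) and that of Hspb1 (chr5:135887769-135887918, plus strand) were as follows.
Hspe1: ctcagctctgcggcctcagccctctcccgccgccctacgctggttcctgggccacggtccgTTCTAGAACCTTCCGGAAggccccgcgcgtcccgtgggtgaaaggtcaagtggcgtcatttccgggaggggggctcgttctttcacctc
Hspa1a: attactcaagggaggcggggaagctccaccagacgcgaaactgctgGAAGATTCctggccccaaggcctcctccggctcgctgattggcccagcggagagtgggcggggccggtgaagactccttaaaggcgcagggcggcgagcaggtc
Hspa1b: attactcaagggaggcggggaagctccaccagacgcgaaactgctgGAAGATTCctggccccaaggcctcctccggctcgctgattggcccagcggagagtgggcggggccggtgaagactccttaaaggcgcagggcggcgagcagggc
Hspb1: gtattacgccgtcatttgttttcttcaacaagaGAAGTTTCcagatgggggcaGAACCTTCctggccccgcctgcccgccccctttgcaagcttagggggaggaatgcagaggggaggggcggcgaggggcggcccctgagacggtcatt

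A window of Hspd1 overlaps that of Hspe1 by 285 bases on the opposite strand, and the capitals of the Hspe1 stretch are therefore also those of Hspd1. In this shared stretch 3 overlapping matches of 2 units run into each other. On the Hspe1 strand they begin at -89, -84 and -79 from the Hspe1 start. On the Hspd1 strand, in the reverse order, they begin at -144, -139 and -134 from the Hspd1 start. The 3-unit form (GAANNTTCNNGAA or TTCNNGAANNTTC) was found in windows of 3 members, Hspd1, Hspe1 and Hsph1, and in 0.603% of all 32851 promoter windows. The 2-unit form was found in 6 of the 7 members with a window and in 15.1% of all windows. Members were counted by any of their windows (10 in all), while the percentages are of single windows. The matches of Hspd1 and Hspe1 are the same DNA, and a second Hspd1 window held 0. Hspa1a and Hspa1b each had 1 match, at -104, and their stretches differ at 1 of 150 bases, their windows at 4 of 300. The windows of Dnajb1 held 0 matches. A match is a run of letters and not a measured binding site.

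Median spot intensities of single arrays were 380 to 530 in the treated channel and 813 to 962 in the untreated channel, against 62 to 67 and 66 to 80 on negative controls. All 16 member probes passed the filter on dim probes, and 0 were saturated. The lone exception to full detection was the dimmer Hspa1b probe, well above background in the treated channel on 3 of 4 arrays. With 0 dye-swapped arrays, a dye effect of a probe cannot be told apart from the treatment. Values are log2 ratios of normalized intensity, vitamin C over untreated. The sign rests on the dye labels and opposes that of the deposited table. Were the labels reversed, every sign here would turn, and each lower and higher would swap. Over all probes, array 2 correlated with the others at r of -0.14 to 0.05 and arrays 1, 3 and 4 with each other at 0.57 to 0.78 (across probes, which are not replicates). The labels call the livers biological replicates, and their number limits the precision. Measured hepatocyte markers (6 of 8) were bright, with log2 intensities of 15.6 or more, and name the tissue as the labels do.

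Of the 16 member probes, 0 passed limma's test (Benjamini-Hochberg adjusted p under 0.05 over 39328 probes), as did 0% of all probes, and the smallest adjusted p was 0.139. Without adjustment, 10697 probes had p under 0.05, and a fit of the separate channels called 2880 after adjustment. At an unadjusted p under 0.05, 5 member probes were lower (15.5% of all probes were) and 1 was higher (11.7%). Ratios were below 0 on all 4 arrays for 5 member probes (15.5% of all probes) and above 0 on all 4 for 2 (also 15.5%). The lower ones on all 4 arrays were both Hspd1 probes, Hsp90aa1 and both Hsp90ab1 probes. The higher ones were both probes of Dnajb1. The median over the 16 probes was -0.051, against -0.0092 over all probes tested.

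**Figure D1:**
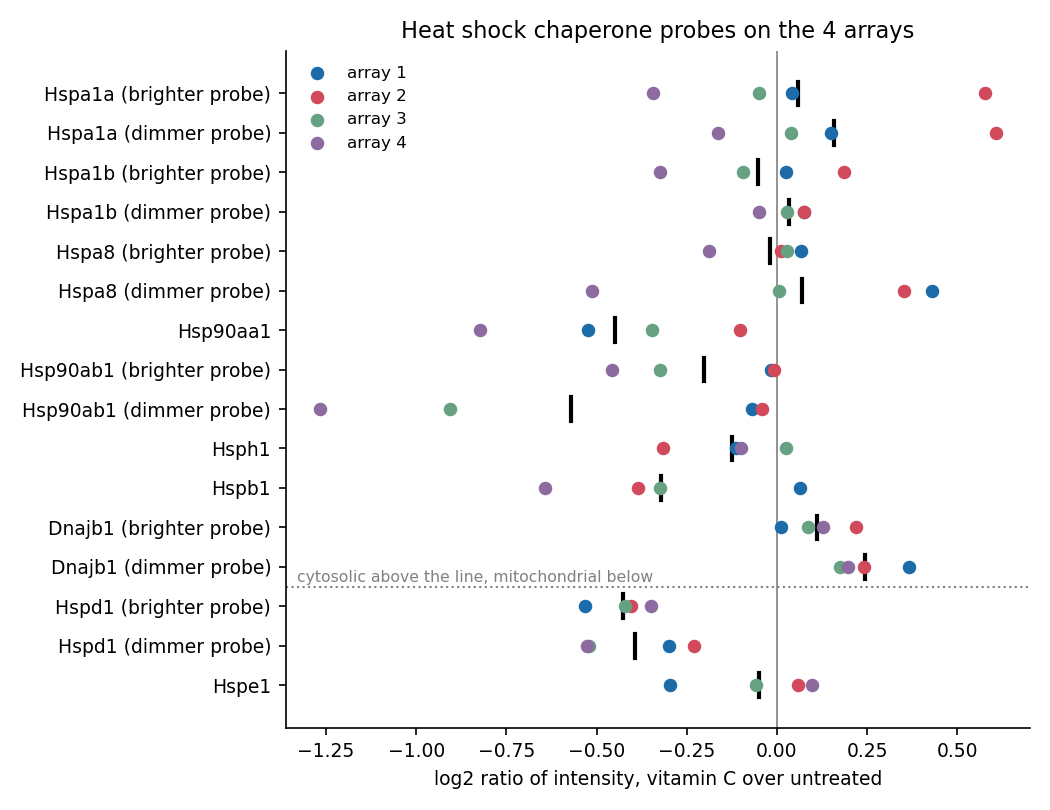
Log2 ratio of intensity, vitamin C over untreated, of the 16 chaperone probes, with 1 coloured point per array and a black bar at the mean of the 4. Both Hspd1 probes have all points left of 0 and both Dnajb1 probes have all points right of 0, while array 4 gives the lowest point of 6 of the 8 cytosolic members (brightest probes).

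Hspd1, the mitochondrial chaperonin, had the most uniform ratios of the members that lay below 0. Its brighter probe had normalized intensities of 102320, 94234, 87865 and 109750 in treated livers on arrays 1 to 4, against 147910, 124620, 117550 and 139920 in untreated livers. Each treated value was below each untreated value, but the share of all probes with levels so separated is not given here. The log2 ratios were -0.53, -0.40, -0.42 and -0.35, with a mean of -0.43 ± 0.076 (SD, n = 4), a fold of 0.744 (limma adjusted p = 0.139, unadjusted p = 0.000185). The dimmer Hspd1 probe had 16383, 12392, 10717 and 14915 in treated livers, against 20149, 14526, 15369 and 21500 in untreated livers. These ranges overlapped between the groups, although the treated liver was lower on each array. Its ratios were -0.30, -0.23, -0.52 and -0.53, with a mean of -0.39 ± 0.15 (adjusted p = 0.139). The 2 probes differed by -0.03 ± 0.20 in log2 ratio, brighter minus dimmer. The brighter probe passed limma's test in 3 of 15 alternatives: without array 2 (mean -0.43, adjusted p = 0.0124), in the fit of the separate channels (0.0166) and without loess (0.0182). In the other 12 its adjusted p was 0.110 to 0.471. Of all probes, 9689, 2880 and 11892 passed in those 3.

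Hspe1, the lid of the HSP60 barrel, was measured by 1 probe. It had 42988, 46081, 41684 and 51813 in treated livers, against 52823, 44245, 43403 and 48396 in untreated livers, and the groups overlapped. The log2 ratios were -0.30, 0.059, -0.058 and 0.098, a mean of -0.050 ± 0.18 (SD, n = 4; limma adjusted p = 0.692). Without array 1 the mean was 0.033, and without loess it was -0.23 (adjusted p = 0.0544, against up to 0.850 in other alternatives). Although the 2 genes share the stretch of DNA printed above, the ratio of Hspd1 (brighter probe) was below that of Hspe1 on 4 of 4 arrays. The difference in log2 ratio, Hspd1 minus Hspe1, was -0.23, -0.46, -0.36 and -0.45, or -0.38 ± 0.10. No test of it is given. After the running median of all probes at like intensity was subtracted from both genes, a choice made after seeing the data, it was -0.062, -0.33, -0.20 and -0.29, with a mean of -0.22 ± 0.12. With the dimmer Hspd1 probe it was -0.0013, -0.29, -0.46 and -0.63, so on array 1 that probe and Hspe1 had nearly the same ratio.

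**Figure D2:**
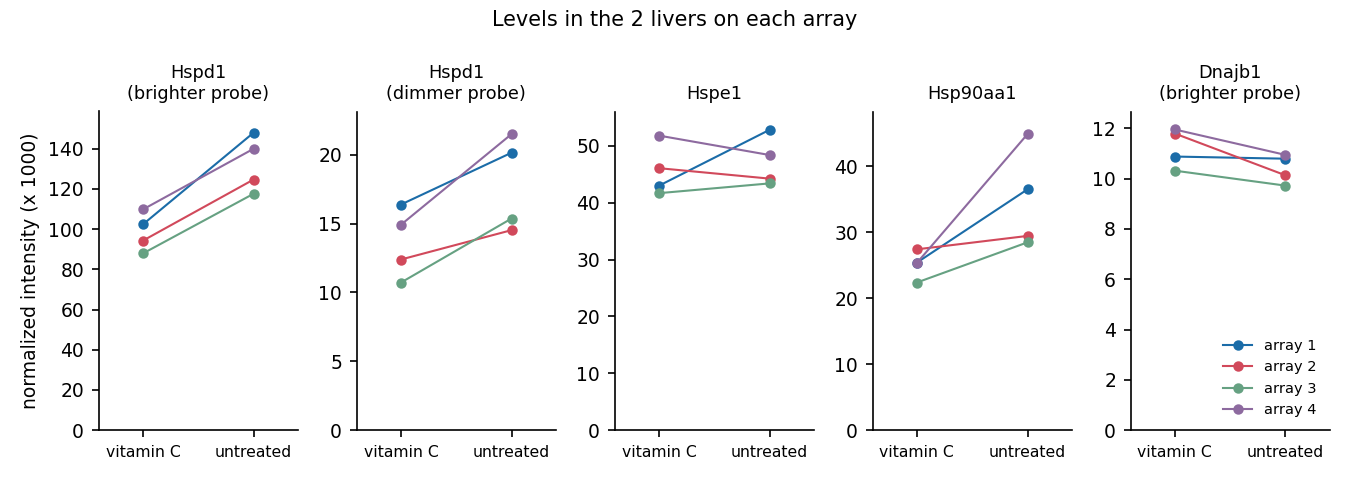
Normalized intensity (linear axis from 0) in the vitamin C and the untreated liver of each array, 1 line per array, for 5 probes. All lines of the Hspd1 probes and of Hsp90aa1 climb toward the untreated liver, those of Hspe1 run both ways, and those of Dnajb1 are lower in the untreated liver.

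The HSP90 genes of the cytosol also lay below 0 on each array, with a larger spread. Hsp90aa1, the inducible form, had 25416, 27429, 22396 and 25359 in treated livers, against 36527, 29463, 28489 and 44908 in untreated livers. The groups did not overlap, again without a share over all probes to set beside this. Its log2 ratios were -0.52, -0.10, -0.35 and -0.82, a mean of -0.45 ± 0.30 (fold 0.732, limma adjusted p = 0.141). Hsp90ab1, the constitutive form, was near 0 on arrays 1 and 2 and lower on arrays 3 and 4 by both of its probes. The brighter probe had ratios of -0.016, -0.0084, -0.32 and -0.46, a mean of -0.20 ± 0.23 (adjusted p = 0.212). The dimmer probe had -0.069, -0.040, -0.91 and -1.27, a mean of -0.57 ± 0.61 (adjusted p = 0.177). The probes thus had the same order of arrays 3 and 4 but differed in size by 0.58 and 0.81 on those arrays. Hsp90aa1 passed the test in the same 3 alternatives, without array 2 (mean -0.56, limma adjusted p = 0.0195), with separate channels (0.0366) and without loess (0.0188), against up to 0.471 in the others. Without array 4 the means of Hsp90aa1 and of the brighter Hsp90ab1 probe were -0.32 and -0.12.

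The inducible HSP70 genes Hspa1a and Hspa1b had no common direction over the arrays. Their transcripts are near-identical and probe sequences were not used here, so the probes may read both genes. The brighter Hspa1a probe had log2 ratios of 0.043, 0.58, -0.049 and -0.34, a mean of 0.057 ± 0.38 (SD, n = 4; limma adjusted p = 0.813). The treated liver of array 2 had the highest level of this probe, 877 against 588 in its untreated partner. Without array 2 the mean was -0.12. The dimmer Hspa1a probe followed it, with 0.15, 0.61, 0.040 and -0.16. The brighter Hspa1b probe had 0.025, 0.19, -0.094 and -0.32, a mean of -0.052 ± 0.22, or 0.039 without array 4. The dimmer one, with a log2 intensity of 6.57, ranged from -0.049 to 0.076.

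Hspa8, the constitutive HSP70, was close to 0 by its brighter probe, with ratios of 0.068, 0.012, 0.028 and -0.19 and a mean of -0.020 ± 0.11 (limma adjusted p = 0.844). The mean was 0.036 without array 4. Its dimmer probe was more variable, at 0.43, 0.35, 0.0045 and -0.51. Hsph1, an HSP110 that exchanges the nucleotide of HSP70, had -0.11, -0.31, 0.025 and -0.099, a mean of -0.13 ± 0.14 (adjusted p = 0.261), or -0.063 without array 2. Hspb1, the small heat shock protein HSP25, had 0.065, -0.39, -0.32 and -0.64, a mean of -0.32 ± 0.29 (adjusted p = 0.159). Its level was lower in the treated liver on 3 arrays and higher on array 1.

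Dnajb1, the HSP40 that activates HSP70, was the one member above 0 on each array. The brighter probe had 10873, 11787, 10312 and 11949 in treated livers, against 10788, 10128, 9718 and 10939 in untreated livers. The groups overlapped, and array 1 showed the smallest gap. The log2 ratios were 0.011, 0.22, 0.086 and 0.13, a mean of 0.11 ± 0.087 (SD, n = 4; limma adjusted p = 0.229). The dimmer probe had 0.37, 0.24, 0.17 and 0.20, a mean of 0.24 ± 0.086 (fold 1.18, adjusted p = 0.139). Without loess the brighter probe averaged -0.0053 and the dimmer one 0.089.

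Cytosolic and mitochondrial members were then set against each other on each array, each by its brightest probe. The mean log2 ratio over the 8 cytosolic members was -0.055, 0.023, -0.13 and -0.34 on arrays 1 to 4, and that over the 2 mitochondrial members was -0.41, -0.17, -0.24 and -0.13. The difference, cytosolic minus mitochondrial, was 0.36, 0.20, 0.11 and -0.22. It was thus above 0 on 3 arrays and below 0 on array 4, and its mean of 0.11 ± 0.24 (SD, n = 4) was smaller than its spread. On array 1, 7 of the 8 cytosolic members lay above both mitochondrial ones, on array 4 only 1 did. On array 4 also 6 of the 8 had their lowest ratio, and 1 was above 0. Dnajb1 was the one cytosolic member above the mitochondrial mean on all 4 arrays, by 0.35 ± 0.076. No p is given, as the members were chosen with results known. The difference was 0.22 without array 4, 0.030 without array 1, 0.042 after the running median of all probes at like intensity was subtracted and -0.0042 with Agilent's processed signals.

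**Figure D3:**
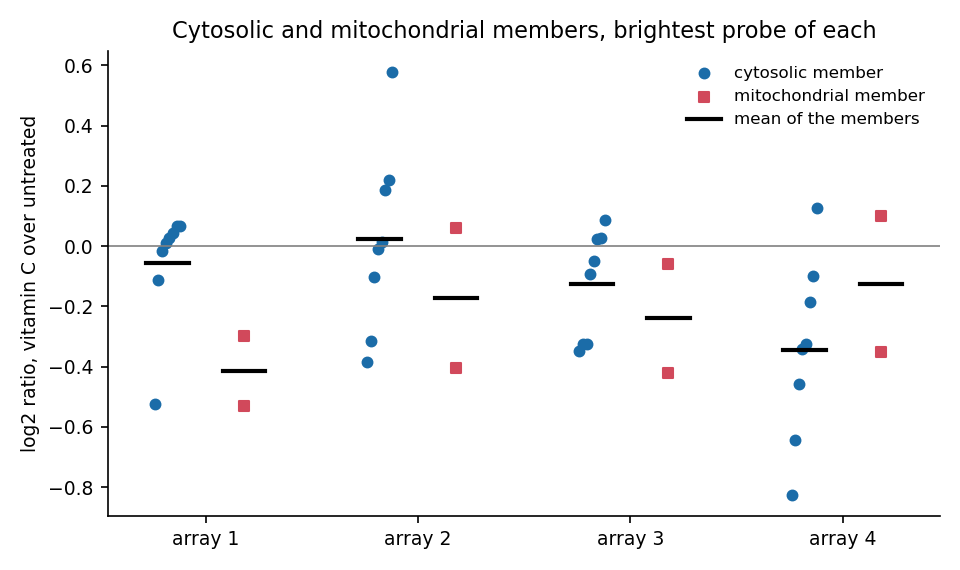
Log2 ratio, vitamin C over untreated, of the 8 cytosolic (circles) and 2 mitochondrial members (squares) on each array, with a bar at each mean. The cytosolic bar is above the mitochondrial bar on arrays 1 to 3 and below it on array 4, and the points of both kinds overlap on each array.

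Intensity moved with part of these results. The brighter Hspd1 probe had a mean log2 intensity of 16.8, where the running median of all probes was -0.14, and its mean was -0.29 after that was taken off. The dimmer Hspd1 probe lay at 13.9, where the running median was 0.036, and its mean was -0.43 afterwards. Over 5 other treatments of the signals the dimmer probe ran from -0.51 to -0.39. Of the 1913 probes at least as bright as it, 17.7% were below 0 on all 4 arrays, and their median was 0.0029. Hsp90aa1 lay at 14.8, where the running median was 0.047. Hepatocyte markers, with a median log2 intensity of 17.1, had array medians of -0.31, -0.23, -0.30 and -0.35, and their summed intensity was 709090 to 927480 in treated livers, against 946230 to 1193100 in untreated livers. Of the 6 measured, each by a probe that passed the filter on dim probes, 3 were below 0 on all 4 arrays (15.5% of all probes were). Their means were below 0 for 5 and above 0 for 1, Ttr, which averaged 0.11. Cyp2e1 ran both ways, at 0.47, -0.29, 0.0094 and -0.90. The summed intensity weighs the brightest marker most, which was Alb, with a mean ratio of -0.70. All 328 probes in the brightest group, at a median log2 intensity of 17.0, had a median ratio of -0.19 and a 10th to 90th percentile of -0.57 to 0.043, and the median of the markers, -0.34, lay within that range. The part of the markers and of intensity in the Hspd1 ratios was not tested. In whole liver, fewer cells of a type and less RNA per cell cannot be told apart. The 8 lists of other cell types had medians of -0.32 (red blood cells) to 0.13 (T and NK cells).

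**Figure D4:**
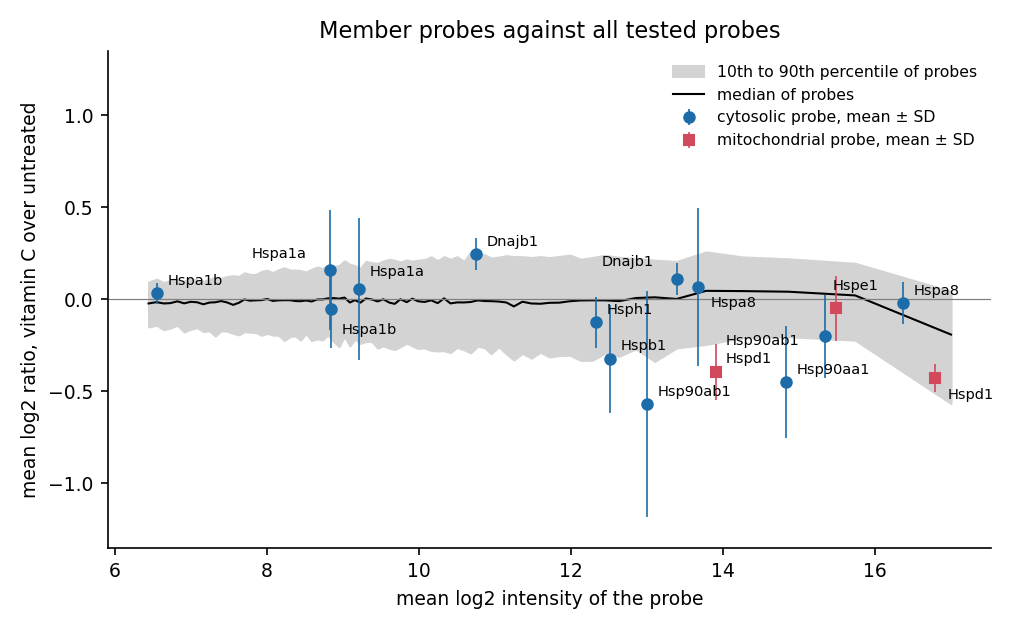
Mean log2 ratio, vitamin C over untreated, against mean log2 intensity for the 16 member probes (bars are SD of 4 arrays), over the median and the 10th to 90th percentile of all tested probes in groups of like intensity. The brighter Hspd1 probe lies where the median bends below 0 and the dimmer one where it is near 0.

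Of 94 further genes of protein folding, in 8 lists drawn up from general knowledge, 91 were measured and 0 passed the test. At an unadjusted p under 0.05, 10 were lower (15.5% of all probes were) and 22 higher (11.7%). Their median was 0.064, against -0.0092 over all probes tested, and 65 had a mean above 0 and 26 below. Mitochondrial chaperones and proteases, a list not confined to the matrix, had a median of 0.13, with array medians of 0.15, 0.053, 0.14 and 0.13. Of these 20 genes, 10 were above 0 on all 4 arrays and 2 below (15.5% of all probes each way), and 9 were higher (11.7% of all probes) and 2 lower (15.5%) at an unadjusted p under 0.05. Pam16, of the import motor, averaged 0.21 ± 0.027 (SD, n = 4), and Hscb, a J protein of iron-sulphur cluster assembly, 0.24 ± 0.080. Hspa9, the mitochondrial HSP70, was at 0.13 ± 0.18 with an adjusted p of 0.309, and was named after its value had been seen. The list's median was -0.031 without loess.

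Exchange factors and partners of HSP70 had a median of 0.16, and 10 of 10 means were above 0, the lowest that of Bag6 at 0.015. The share of all probes with a mean above 0 is not given here. On all 4 arrays, 6 of the 10 were above 0 and 0 below (15.5% of all probes each way). Bag4 averaged 0.33 ± 0.18 and Bag1, an exchange factor of HSP70, 0.24 ± 0.11. HSP90 co-chaperones had a median of 0.058, with Cdc37l1 at 0.36 ± 0.17 and Aarsd1 at 0.26 ± 0.15. Heat shock factors and their regulator had 0.14, with Hsf4 at 0.23 ± 0.15 and Hsbp1, which binds HSF1, at 0.17 ± 0.12. Small heat shock proteins other than Hspb1 had 0.089 over 7 genes, of which Cryab, an alpha-crystallin, averaged -0.42 ± 0.36 and Hspb7 0.11 ± 0.063.

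The cytosolic chaperonin TRiC with prefoldin had a median of 0.038. Its subunit gene Cct2 averaged -0.22 ± 0.036 and Pfdn1 -0.24 ± 0.094, both below 0 on all 4 arrays. Of the 14 genes in this list, 3 were below 0 on all 4 arrays and 4 above (15.5% of all probes each way). J proteins listed as those of the cytosol had -0.0023, with the membrane-bound Dnajb12 at -0.34 ± 0.21 and Dnajc5, also membrane-bound, at -0.18 ± 0.086. Other HSP70 and HSP110 genes had 0.0060, with Hspa4l at -0.13 ± 0.094 and Hspa12a at -0.14 ± 0.20. None of these named genes passed the test (limma adjusted p of 0.139 or more). Without loess, 5 of the 8 list medians were below 0, those of TRiC, HSP90 co-chaperones, J proteins, other HSP70 genes and the mitochondrial list.

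**Figure D5:**
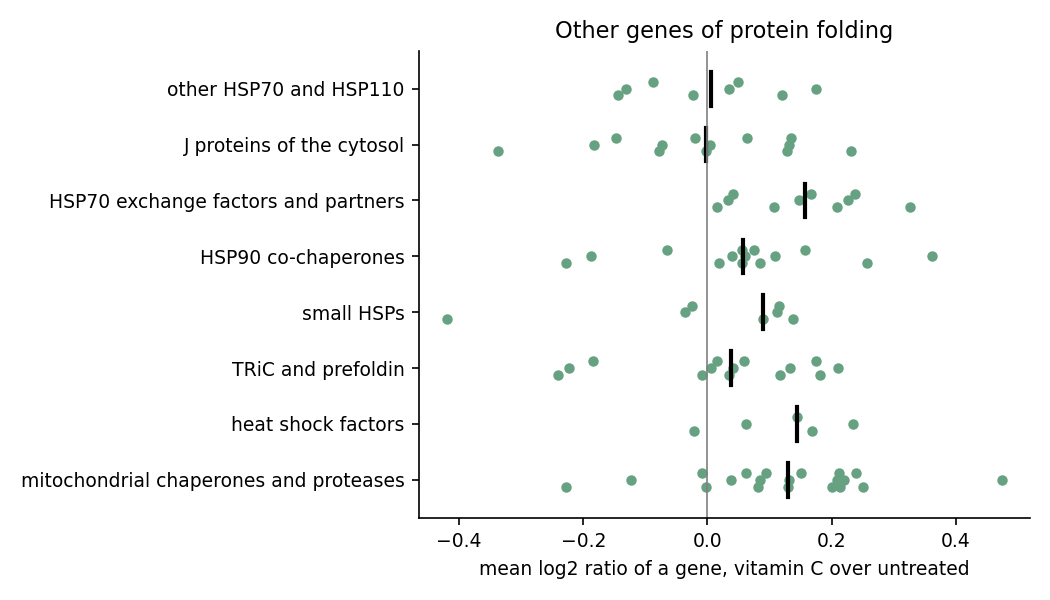
Mean log2 ratio, vitamin C over untreated, of single genes (points) in 8 lists of protein folding, with a bar at the median of each list. The medians lie between -0.0023 for J proteins and 0.16 for the exchange factors and partners of HSP70, and most points of the mitochondrial list are right of 0.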

How the data were processed

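The authors deposited spot intensity values of 4 arrays. Per the file headers, the scanner software was Agilent Feature Extraction 10.5.1.1. Used here were median signals and backgrounds in each channel, and Agilent's processed signals. They also deposited a table of log2 values; limma is named in the submitters' processing notes, and no other step is. Its columns correlated with the ratios computed here at r of -0.980 to -0.950, with slopes of -1.18 to -1.10 and medians of 0.0014 to 0.0050. It thus runs as Cy5 over Cy3, which by the dye labels is untreated over treated. No other value settled the direction, and its exact scale stayed unknown. The log2 ratio, Cy3 over Cy5, was taken after normexp background correction (offset 50) and loess within arrays, with control spots at weight 0, outlier spots left out and spots of a probe averaged. Probes that exceeded background clearly, in either channel, on 3 or 4 arrays were tested against 0 with limma (lmFit, eBayes; limma 3.58.1, statmod 1.5.0, R 4.3.3; Python 3.11.15 for promoters and figures), adjusted over all 39328 such probes. A liver and its partner share an array, so the pairing lies in the ratio. All 4 arrays lay on 1 slide. Accessions gave a symbol for 25097 of 41174 probes through RefSeq (GRCm38.p6, not the build of the array; its coordinates are given with the promoter stretches alone). The code was tested on simulated data. The members, lists and alternatives were chosen with earlier results of these data known. All 10 members are named with every probe. Of each related list the 2 genes with the smallest unadjusted p are named. For the lowest and the highest member, the 3 genes with the nearest ratios are named. Cell type markers were hepatocyte genes and lists of 8 other cell types. The separate-channel fit estimated its spot correlation on every 10th probe.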

Additional observations from a re-analysis of the deposited data

How the results depend on the processing

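Hspd1, Hsp90aa1, Hsp90ab1, Hsph1 and Hspb1 stayed below 0 in each of 15 alternatives run, with means of -0.66 to -0.25 for Hspd1 and -0.60 to -0.32 for Hsp90aa1. Their adjusted p ran from 0.0124 to 0.471 and from 0.0188 to 0.471. Some of the 15, such as the separate-channel fit, changed only the test and returned the main means, so no sign could turn there. Leaving out an array could not turn the sign of Hspd1, Hsp90aa1 or Hsp90ab1 either, as their ratios were below 0 on every array. For these genes only changed signals or normalization could have turned the sign, and they did not. No member passed in more than 3 of the 15. In the separate-channel fit 2880 probes passed, with Hspd1 (-0.43) and Hsp90aa1 (-0.45) among them. Median centring without loess passed 11892 probes, among them Hspd1 (-0.66), Hsp90aa1 (-0.60), Hspb1 (-0.45), Hsp90ab1 (-0.38), Hsph1 (-0.26) and Hspa8 (-0.24), and Hspe1 was at -0.23. Hspa1a (-0.0035) and Dnajb1 (-0.0053) were then below 0. List medians without loess were -0.15 for J proteins, -0.12 for other HSP70 genes, -0.089 for TRiC, -0.085 for HSP90 co-chaperones, -0.031 for the mitochondrial list, 0.0036 for small heat shock proteins, 0.036 for exchange factors, 0.11 for heat shock factors and -0.053 for all 91 genes. With Agilent's processed signals Hspa1b (0.074), Hspa8 (0.040) and Hspe1 (0.028) were above 0, and medians were -0.042 for other HSP70 genes, -0.0072 for TRiC, 0.12 for HSP90 co-chaperones, 0.15 for small heat shock proteins and 0.091 for all. After the running median of all probes at like intensity was subtracted, Hspa8 was at 0.00064 and HSP90 co-chaperones at 0.033. The difference between Hspd1 and Hspe1 was then -0.22, against -0.36 to -0.34 with the dimmer Hspd1 probe, settings chosen after seeing the data. The causes were not tested.

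With an array left out, 0 to 9689 probes passed, the 9689 without replicate 2, where Hspd1 and Hsp90aa1 also passed (adjusted p = 0.0124 and 0.0195, limma). Means then ran from -0.45 to -0.39 for Hspd1, -0.56 to -0.32 for Hsp90aa1, -0.099 to 0.033 for Hspe1, -0.12 to 0.19 for Hspa1a, -0.18 to -0.063 for Hsph1, -0.13 to 0.039 for Hspa1b, -0.42 to -0.35 for Hspd1 minus Hspe1 and -0.049 to 0.036 for Hspa8. List medians ran from -0.047 to 0.0050 for J proteins, -0.013 to 0.036 for other HSP70 genes, 0.033 to 0.063 for TRiC, 0.10 to 0.20 for exchange factors, 0.057 to 0.091 for small heat shock proteins, 0.069 to 0.16 for heat shock factors and 0.058 to 0.095 for all. The cytosolic minus mitochondrial difference moved by less than its SD in each of 19 alternatives, from -0.0042 to 0.22. That SD, 0.24, exceeds the mean of 0.11, so loss of the whole difference would also have been a smaller move. Some of the 19 did not alter the ratios. The dimmer Hspa1b probe, at a log2 intensity of 6.57, was detected in the treated channel on 3 of 4 arrays.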

Other observations

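By brightest probe, Hsp90aa1 was the member of lowest mean and Dnajb1 that of highest. Among 16858 other genes well above background in both channels, those whose 4 ratios lay nearest to Hsp90aa1 were Cngb3, Dus4l and Hipk4 (root mean square differences of 0.042, 0.057 and 0.061 in log2 ratio over 4 arrays). Their log2 intensities were 8.46, 9.41 and 8.81, against 14.8 for Hsp90aa1. Nearest to Dnajb1 were N4bp3, Zfp82 and Syt8 (0.018, 0.020 and 0.023). Log2 intensities of these were 11.5, 7.53 and 7.55, against 13.4 for Dnajb1.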
